A study of Mus musculus with 63 samples.

Results

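A set of 7 genes that mark fetal-like and regenerative gut epithelium (Anxa1, Anxa3, Ly6a, Msln, Clu, Afp and Il33) was followed through small intestinal tumours of the mouse. They were chosen by symbol: the 7 members were looked up among the 24766 genes of a table of normalised counts, and all 7 had a row. All 7 were above the limit set for testing (a mean value of 10), as were 16489 genes of the table. The table covers 63 bulk RNA-seq libraries from 2 C57BL/6 mice, 1 female and 1 male, induced at 8 weeks of age or older. All libraries share 1 genotype and treatment: Villin-creERT2 with a conditional Apc allele in the heterozygous state (Apchet) and the R26R-Confetti reporter. Villin drives the recombinase in the intestinal epithelium, so tamoxifen (4 mg) removed 1 Apc allele there and switched on Confetti in scattered crypts, and ENU, a chemical mutagen, was given after 10 days (200 mg per kg). In 20 tumours, 10 of each mouse, 2 clones that differed in Confetti labelling had been dissected apart, giving 20 libraries of the larger (major) and 20 of the smaller (minor) clone. A further 23 tumours, 10 of the female and 13 of the male mouse, were sequenced whole (undivided). By label they were numbered 1 to 10 in each mouse, with 15, 17 and 18 besides in the male mouse. Segments of the small intestine were labelled SI10, SI20 and SI30, and SI30 held 2 divided tumours of the female mouse. With 1 animal of each sex, mouse and sex cannot be told apart, and p-values measure the spread between tumours of these 2 animals.

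Crypts of the small intestine are renewed by stem cells at their base, which depend on WNT signals and express Lgr5, a receptor for R-spondins. When these cells are lost to injury, surviving epithelial cells rebuild the crypt while they switch on genes otherwise used in the fetal gut, and Lgr5 is low in that state. Tumours that lose Apc have constant WNT signalling and express Lgr5 in at least part of their cells. Whether the fetal-like genes differ between the clones of a tumour, between dissected and whole tumours and between segments, and whether they run with or against Lgr5, are the questions addressed here. In bulk tissue, fewer cells of a type and less RNA per cell cannot be told apart.

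The genes lie on 5 chromosomes (coordinates of GRCm39, Gencode M39), and all are protein-coding. Anxa1 (ENSMUSG00000024659, chr19:20350792-20368374, minus strand) and Anxa3 (ENSMUSG00000029484, chr5:96940544-96993828, plus strand) encode annexins, proteins that bind membrane phospholipids in the presence of calcium. Ly6a (ENSMUSG00000075602, chr15:74863840-74869880, minus strand) encodes Sca-1, a surface protein by which regenerating gut cells are sorted, and Msln (ENSMUSG00000063011, chr17:25967312-25985619, minus strand) encodes mesothelin, a surface glycoprotein of the mesothelium. Clu (ENSMUSG00000022037, chr14:66190200-66218999, plus strand) encodes clusterin, a secreted chaperone that marks revival stem cells. Afp (ENSMUSG00000054932, chr5:90638584-90656766, plus strand) encodes alpha-fetoprotein, a plasma protein of the fetal liver and yolk sac. Il33 (ENSMUSG00000024810, chr19:29902483-29938933, plus strand) encodes an alarmin cytokine that is released from damaged cells. Of the 31-base words in the canonical transcript, none was found in a transcript of another gene for Anxa1, Anxa3, Clu, Msln or Afp. For Il33 the share was 0.448% and for Ly6a 20.4%, so the value of Ly6a rests in part on how the authors' quantification divided reads.

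The sequence just upstream of the start site was read from GRCm39 for all 7 genes and Lgr5 and searched for 4 motifs. The letters were TGANTCA for AP-1, GGAATG for TEAD factors and CTTTGAT for TCF factors, each on both strands, and TATAAA for a TATA box on the strand of the gene. Among 250-base windows of 16903 protein-coding genes, AP-1 letters were present in 5.26%, TEAD letters in 12%, TCF letters in 2.65% and the TATA box in 5.69%. Only 2 of the 8 windows held a match, that of Afp with a TATA box and that of Il33 with a TATA box and a TEAD motif, and no matches overlapped. Both windows are shown because Afp is the gene whose difference between groups passed the test and Il33 held the TEAD letters (5′ to 3′ on the gene's strand, matches in capitals, GRCm39 chr5:90638334-90638583 and chr19:29902233-29902482).
Afp: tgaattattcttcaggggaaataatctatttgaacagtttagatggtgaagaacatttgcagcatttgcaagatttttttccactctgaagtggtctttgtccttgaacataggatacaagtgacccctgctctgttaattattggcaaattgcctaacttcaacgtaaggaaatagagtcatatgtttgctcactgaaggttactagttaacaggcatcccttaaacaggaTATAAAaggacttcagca
Il33: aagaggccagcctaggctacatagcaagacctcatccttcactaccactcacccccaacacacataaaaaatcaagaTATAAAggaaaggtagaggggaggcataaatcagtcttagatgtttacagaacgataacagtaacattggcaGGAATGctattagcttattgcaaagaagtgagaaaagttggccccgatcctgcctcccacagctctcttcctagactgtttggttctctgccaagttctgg
Counted back from the start site, the TATA box of Afp covered bases -18 to -13, that of Il33 -173 to -168, and the TEAD letters of Il33 -101 to -96.

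Summed over genes, a library held 26140200 to 45909900 normalised counts (median 30889300). From the spacing of low values, 1 read was worth 0.578 to 2.33 normalised counts. The lowest value of Afp, the lowest member in counts, then stood for about 11.0 reads and its median for about 63, and the precision of every value below is taken from the spread between tumours. In all 63 libraries Xist and Ddx3y matched the sex of the mouse. The epithelial marker Epcam was between 31001 and 74424 in all libraries. Markers of other cells were present at lower counts, with Pecam1 of endothelium at 22.8 to 864, Pdgfra of fibroblasts at 110 to 2546, Ptprc of leukocytes at 40.2 to 584 and Upk3b of mesothelium at 4.71 to 169.

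All 7 genes were expressed in every library, and they varied widely between tumours. Over the 63 libraries the highest value was 57.3 times the lowest for Clu, 54.1 times for Afp, 43.2 times for Msln, 24.3 times for Ly6a, 21.4 times for Anxa3, 17.7 times for Il33 and 12.9 times for Anxa1, against 26.7 times for Lgr5. Clu ranged from 4841 to 277590 normalised counts (median 78961). Anxa1 ranged from 1029 to 13258 (median 5887), and Anxa3 from 214 to 4579 (median 1743). Ly6a lay between 221 and 5374 (median 1035), Il33 between 795 and 14058 (median 4264) and Msln between 71.7 and 3099 (median 596). Afp lay between 14.3 and 771 (median 65.3). The extremes of most genes were undivided tumours of the male mouse, which held the lowest value of Anxa1, Anxa3, Ly6a, Clu and Il33 and the highest value of Afp. These came from few tumours: the lowest Anxa1 and Ly6a from undivided tumour 15, and the lowest Anxa3 and Il33 from undivided tumour 18. The lowest Clu and the highest Afp were both in undivided tumour 2.

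**Figure D1:**
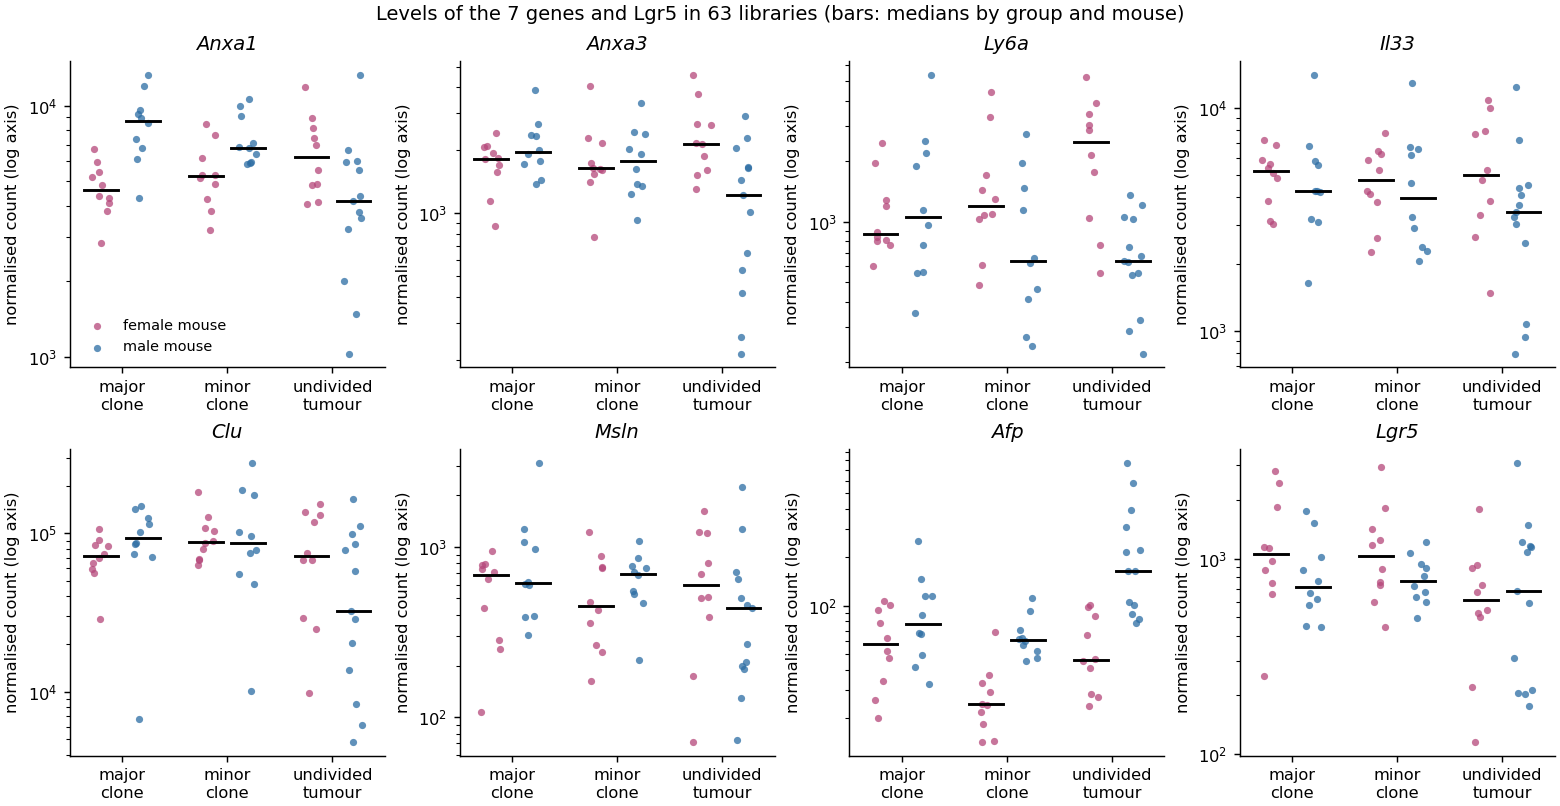
Normalised counts (vertical log axis) of the 7 genes and Lgr5 in each of the 63 libraries, by group (horizontal axis) and mouse (colour). Points are libraries and black bars are medians. Afp is highest in undivided tumours of the male mouse (78.5 to 771), where Anxa1, Anxa3 and Clu reach their lowest values.

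The first question was whether the 2 clones of a tumour differ in these genes. None of the 7 passed the test between major and minor clones (limma with the tumour as a block, Benjamini-Hochberg adjustment over 16428 genes, threshold 0.05), where 188 genes (1.14% of all tested) were called. At an unadjusted p under 0.05, 1 member and 3680 genes of the table were counted. The direction of the values, major against minor, changed from tumour to tumour. With 1 library of each clone, a difference within a single tumour could not be tested.

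Afp was the member closest to the threshold. In major clones it ranged from 19.9 to 253 (median 66.9) and in minor clones from 14.3 to 112 (median 46.1), so the groups overlapped. The mean difference, major minus minor, was 0.70 on the log2 scale (SE 0.22, n = 20 tumours, limma, adjusted p = 0.0801), with a higher value in 13 of 20 major clones. In 6 tumours the clones differed by more than 2-fold, and in all 6 the major clone was the higher one. The largest differences were in tumour 22 of the female mouse (93.8 in the major against 14.5 in the minor clone) and tumour 19 of the male mouse (253 against 45.2). In the female mouse the mean difference was 1.05 (8 of 10 major clones higher) and in the male mouse 0.36 (5 of 10).

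The annexins had the smallest median fold between the clones of a tumour. Anxa1 was at 2841 to 13258 (median 6053) in major and 3187 to 10630 (median 6090) in minor clones. Its mean log2 difference was 0.00 (SE 0.08, limma, adjusted p = 0.985; its sign turned with another scaling of the libraries), and in no tumour did the clones differ by more than 2-fold. Anxa3 was at 871 to 3882 (median 1876) in major and 775 to 4038 (median 1645) in minor clones, a difference of 0.09 (SE 0.13, limma, adjusted p = 0.710), and in 3 tumours of the female mouse its clones differed by more than 2-fold. For both annexins the ranges of major and minor clones overlapped almost fully.

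Ly6a, the surface protein of regenerating cells, had values further apart between clones but in no common direction. It was at 351 to 5374 (median 924) in major and 240 to 4417 (median 1087) in minor clones, with a difference of 0.18 (SE 0.21, limma, adjusted p = 0.660, higher in 12 of 20 major clones). Tumour 28 of the male mouse held 1888 in its major and 240 in its minor clone. Tumour 30 of the female mouse held 1278 and 3307. The median fold between the clones of a tumour, whichever was higher, was 1.65 for Ly6a, 1.48 for Clu, 1.44 for Afp, 1.36 for Msln, 1.29 for Il33, 1.25 for Anxa3 and 1.24 for Anxa1, against 1.34 for Lgr5.

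Clu was higher in 12 of 20 minor clones, with a difference of -0.26 (SE 0.16, limma, adjusted p = 0.341). It was at 6742 to 149505 (median 83989) in major and 10036 to 277590 (median 87699) in minor clones. Msln differed by 0.15 (SE 0.19, limma, adjusted p = 0.677) and Il33 by 0.11 (SE 0.13, limma, adjusted p = 0.661), with major clones higher in 9 and 10 of 20 tumours. Lgr5 itself differed by 0.02 (SE 0.15, limma, adjusted p = 0.963), higher in 10 of 20 major clones. The 25 other fetal and regenerative genes of a wider list were likewise without a call: 15 were higher and 10 lower in major clones, with a median of 0.11, against a median of 0.01 over all genes. Among them was Gja1, a gap junction protein (0.43, SE 0.22, limma, adjusted p = 0.236). Genes of other cells moved too. All 11 enterocyte genes were higher in major clones (median 0.56), and Sis, a disaccharidase of the brush border, rose (1.10, SE 0.26, limma, adjusted p = 0.0439), with a summed level of 138886 to 1450550 in major and 126538 to 1281870 in minor clones. Of 12 fibroblast genes, 11 were higher in major clones (median 0.58, none called, summed level 4305 to 31669 in major and 4743 to 29251 in minor clones). Without a call, 7 of 7 neutrophil (median 0.64), 8 of 8 smooth muscle (0.63), 4 of 4 B and plasma cell (0.57) and 10 of 10 macrophage genes (0.25) were higher as well. With the mean of 6 stromal and immune lists as a covariate Afp differed by 0.86 (SE 0.26, limma, adjusted p = 0.337), and the part of enterocytes was not tested.

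**Figure D2:**
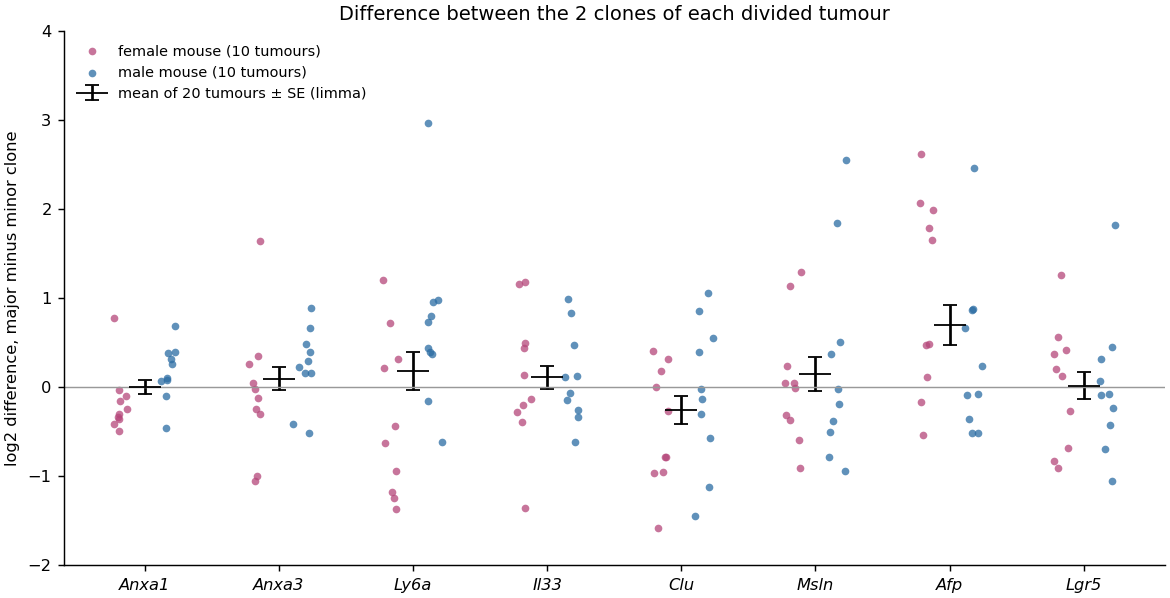
Log2 difference between the major and the minor clone of each of the 20 divided tumours (points, coloured by mouse) for the 7 genes and Lgr5, with the mean and its standard error from limma (black). Points lie on both sides of 0 for every gene, and Anxa1 has the narrowest spread (-0.50 to 0.78).

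The clones of a tumour resembled each other in some genes and not in others. Across the 20 tumours, with log2 values centred on each mouse, the level in the major clone correlated with that in the minor clone at r = 0.72 for Clu, 0.64 for Anxa1, 0.60 for Ly6a, 0.57 for Il33, 0.46 for Msln and 0.29 for Anxa3, and at 0.55 for Lgr5. For Afp it was 0.02. These correlations describe 20 tumours whose clones also share the dissection and, but for tumour 22 of the female mouse, the segment. The value for Clu rests on tumour 19 of the male mouse, which held the lowest Clu of the divided tumours in its major (6742) and in its minor clone (10036). Without it, r for Clu was 0.16 over the other 19 tumours and 0.24, in place of 0.81, over those of the male mouse (0.10 in the female mouse). With each tumour left out in turn, a check chosen after the correlations had been seen, r kept to between 0.58 and 0.81 for Anxa1, 0.48 and 0.73 for Ly6a, and 0.34 and 0.68 for Il33. It ran from 0.28 (without tumour 29 of the female mouse) to 0.64 (without tumour 19 of the male mouse) for Msln, from 0.22 (without tumour 20 of the male mouse) to 0.53 (without tumour 26 of the female mouse) for Anxa3, from -0.08 to 0.14 for Afp and from 0.37 to 0.69 for Lgr5. The mice differed in these values, which rest on 10 tumours each. In the female and the male mouse r was 0.59 and 0.75 for Anxa1, 0.44 and 0.69 for Ly6a, -0.12 and 0.81 for Il33, and -0.04 and 0.64 for Anxa3. It was 0.74 and 0.08 for Msln, -0.08 and 0.17 for Afp, and 0.73 and 0.01 for Lgr5. Several of these values turned on single tumours. In the male mouse r for Msln was 0.58 without tumour 19 and -0.19 without tumour 28. For Afp it was 0.62 without tumour 19 and -0.03 without tumour 29. For Lgr5 it was 0.54 without tumour 29 and -0.38 without tumour 26. In the female mouse r for Ly6a was 0.20 without tumour 20 and 0.70 without tumour 26. For Anxa3 it was -0.22 without tumour 24 and 0.38 without tumour 26, and for Il33 -0.26 without tumour 24 and 0.19 without tumour 22. In tumour 19 of the male mouse the clones were far apart for Afp (253 and 45.2) and Msln (1279 and 217).

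The difference between clones was compared between the mice and between segments. No gene of the table was called in either comparison (0% of 16428 and 0% of 16436 genes, limma interaction, with 1257 and 667 genes at an unadjusted p under 0.05). Anxa1 was higher in 1 of 10 major clones of the female and in 8 of 10 of the male mouse, a difference between mice of 0.34 (SE 0.15, limma, adjusted p = 0.633). Ly6a was higher in 4 of 10 and 8 of 10, a difference of 1.02 (SE 0.38, limma, adjusted p = 0.633). Genes of other cells also had differences between the mice, with no call. Above 0 were 11 of 12 fibroblast (median 0.91), 9 of 10 endothelial (0.79) and 7 of 8 smooth muscle genes (0.71). So were 10 of 10 macrophage (0.32) and 3 of 11 enterocyte genes (-0.12), and the part of these cells was not tested. Between SI20 and SI10 tumours the largest difference among the members was that of Clu (-0.42, SE 0.32, limma, adjusted p = 0.998).

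The second question was how whole tumours compare with dissected clones. Afp was the only member that passed the test, and it was higher in undivided tumours than in minor clones by 1.26 on the log2 scale (SE 0.24, n = 23 and 20, limma with mouse as covariate, adjusted p = 0.00904). It stood 7th of 16491 genes by p. Calls in either direction made up 3.70% of all genes tested, and those higher in undivided tumours 2.27%. In undivided tumours Afp ranged from 23.7 to 771 (median 97.8; mean 167 ± 187, SD, n = 23), against 14.3 to 112 (median 46.1; mean 47.3 ± 26.4, SD, n = 20) in minor clones.

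In the male mouse most undivided tumours lay above the minor clones for Afp. Its 13 undivided tumours ranged from 78.5 to 771 (median 164) and its 10 minor clones from 45.2 to 112 (median 60.7), and 8 of the 13 lay above the highest minor clone. In the female mouse the ranges overlapped more, with 23.7 to 101 (median 45.6) in 10 undivided tumours and 14.3 to 69.0 (median 24.3) in 10 minor clones. The difference was 1.57 (SE 0.35, limma, adjusted p = 0.0187) in the male mouse alone and 0.92 (SE 0.31, limma, adjusted p = 0.470) in the female mouse alone, where no gene of the table was called. The difference between the mice was itself not called (0.65, SE 0.48, limma interaction, adjusted p = 0.595).

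Genes of other cells moved in the same comparison. All 11 enterocyte genes were higher in undivided tumours than in minor clones (median 0.57), and 3 of them rose: Slc5a1, the glucose transporter of the brush border (1.20, SE 0.26, limma, adjusted p = 0.0107), Sis (1.17, SE 0.28, limma, adjusted p = 0.0169), and Treh, the trehalase (1.07, SE 0.26, limma, adjusted p = 0.0206). Their summed level was 208885 to 1886170 in undivided tumours and 126538 to 1281870 in minor clones. All 10 T cell genes were higher (median 0.74), and Gzma, a granzyme (0.92, SE 0.26, limma, adjusted p = 0.0366), Cd3e (0.94, SE 0.28, limma, adjusted p = 0.0437) and Cd3g (0.83, SE 0.25, limma, adjusted p = 0.0489), both of the T cell receptor complex, rose, with a summed level of 809 to 6550 in undivided tumours and 454 to 2606 in minor clones. Of 20 interferon response genes 19 were higher (median 0.45), of which Psmb8, an immunoproteasome subunit, rose (0.76, SE 0.19, limma, adjusted p = 0.0206). Of 21 YAP targets 7 were higher (median -0.03), and 1 of these, the kinase Nuak2, rose (0.63, SE 0.13, limma, adjusted p = 0.00985). Of 10 endothelial genes 4 were higher (median -0.16), and Cdh5, a junction protein, fell (-1.12, SE 0.33, limma, adjusted p = 0.0473). Without a call, 8 of 8 smooth muscle (median 0.39), 4 of 4 B and plasma cell (0.55), 8 of 10 macrophage (0.39), 4 of 7 neutrophil (0.02) and 4 of 12 fibroblast genes (-0.12) were higher. The part of these cells in the value of Afp was not tested for enterocytes, and with the stromal and immune lists as a covariate Afp differed by 1.28 (SE 0.25, limma, adjusted p = 0.00657). Alb encodes albumin, the main plasma protein of the adult liver, and its gene is the neighbour of Afp. It was at 0 to 14019 (median 65) in undivided tumours and 3.43 to 2438 (median 131) in minor clones, a difference of -0.69 (SE 0.90, limma, adjusted p = 0.733).

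No other member passed the test: 5 had lower means in undivided tumours and Ly6a a higher one. Clu was at 4841 to 164926 (median 67711) in undivided tumours, a difference of -0.98 (SE 0.39, limma, adjusted p = 0.140) from minor clones, with -0.59 in the female and -1.33 in the male mouse. Anxa1 was at 1029 to 13244 (median 4865), a difference of -0.36 (SE 0.21, limma, adjusted p = 0.351), and Anxa3 at 214 to 4579 (median 1650), a difference of -0.29 (SE 0.26, limma, adjusted p = 0.584). Msln differed by -0.29 (SE 0.34, limma, adjusted p = 0.693), Il33 by -0.20 (SE 0.27, limma, adjusted p = 0.746) and Ly6a by 0.16 (SE 0.30, limma, adjusted p = 0.833). Lgr5 was at 115 to 3081 (median 675) in undivided tumours and 444 to 2925 (median 850) in minor clones, a difference of -0.61 (SE 0.30, limma, adjusted p = 0.247). Of the 25 other fetal and regenerative genes 24 were lower in undivided tumours, none of them called, with a median of -0.36, against -0.01 over all genes.

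Against major clones, a comparison that shares its undivided tumours with the one above, no member was called, where 2 genes (0.0121% of all tested) were. Afp differed by 0.58 (SE 0.29, limma, adjusted p = 0.416), and its direction turned between the mice, with -0.13 (SE 0.34) in the female and 1.22 (SE 0.40) in the male mouse, where 4 of 10 and 13 of 13 undivided tumours lay above the median of the major clones. Clu differed by -0.73 (SE 0.39, limma, adjusted p = 0.443), Anxa3 by -0.39 (SE 0.26, limma, adjusted p = 0.525) and Anxa1 by -0.37 (SE 0.23, limma, adjusted p = 0.488). Msln differed by -0.45 (SE 0.36), Il33 by -0.31 (SE 0.26), Ly6a by -0.05 (SE 0.31) and Lgr5 by -0.63 (SE 0.32), and none of these passed the test either. At an unadjusted p under 0.05, 1973 genes were counted. Of the 25 other fetal and regenerative genes 23 were lower than in major clones (median -0.41), none called. In the male mouse alone 25 were lower (-0.97), and in the female mouse 8 (0.08). Genes of other cells moved too, with no call. Higher in undivided tumours were 1 of 12 fibroblast (median -0.75), 0 of 7 neutrophil (-0.62) and 1 of 10 endothelial genes (-0.41). So were 9 of 10 T cell (0.52) and 7 of 11 enterocyte genes (0.09).

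The values behind these averages went in different directions in the 2 mice. By mean log2 value, 6 of the 7 genes were lower in undivided tumours than in minor clones of the male mouse. Afp was higher there, and the medians of Ly6a were 641 and 639. Among the undivided tumours of the male mouse, 15, 17 and 18 were lowest in several genes at once. They held its lowest Anxa1 (1029, 2004 and 1476), Ly6a (221, 284 and 324) and Il33 (1083, 942 and 795). The male mouse was not fitted without these tumours together. In the female mouse 6 genes were higher by mean and Clu was lower. Anxa1 shows it most clearly: in the male mouse 9 of 13 undivided tumours (1029 to 13244, median 4154) lay below the lowest of the 10 minor clones (5846 to 10630, median 6805). In the female mouse no undivided tumour did, and 6 of 10 (4061 to 11828, median 6254) lay above the median of the minor clones (5237). The difference was -0.92 (SE 0.30, limma, adjusted p = 0.0789) in the male and 0.27 (SE 0.20, limma, adjusted p = 0.692) in the female mouse. Levels of genes of other cells moved too. The median summed level of neutrophil genes, undivided against minor, was 193 against 570 in the male and 1016 against 575 in the female mouse. For endothelium it was 3172 against 6204 and 8391 against 10624.5, in the same order. For enterocytes it was 1236860 against 726415 and 542441 against 322721, and the part of these cells was not tested here.

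Anxa3 followed the pattern of Anxa1, with -0.88 (SE 0.39) in the male and 0.37 (SE 0.24) in the female mouse. Ly6a had a median of 2507 in undivided tumours of the female mouse (554 to 5245) and 641 in those of the male mouse (221 to 1360). Against major clones Ly6a differed by 0.93 (SE 0.37) in the female and -0.91 (SE 0.39) in the male mouse. A test of group by mouse over all genes, chosen after these levels had been seen, called no gene against minor or against major clones, with 2098 and 1922 genes at an unadjusted p under 0.05. Its smallest p among the members was that of Anxa1 against major clones (-1.53, SE 0.39, limma interaction, unadjusted p = 0.000324, adjusted p = 0.205). All 25 other fetal and regenerative genes were lower in undivided tumours than in minor clones in the male mouse (median -0.77), and 14 of 25 were higher in the female mouse (median 0.06). None of them was called in either mouse, where 757 and 0 genes of the table were called.

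**Figure D3:**
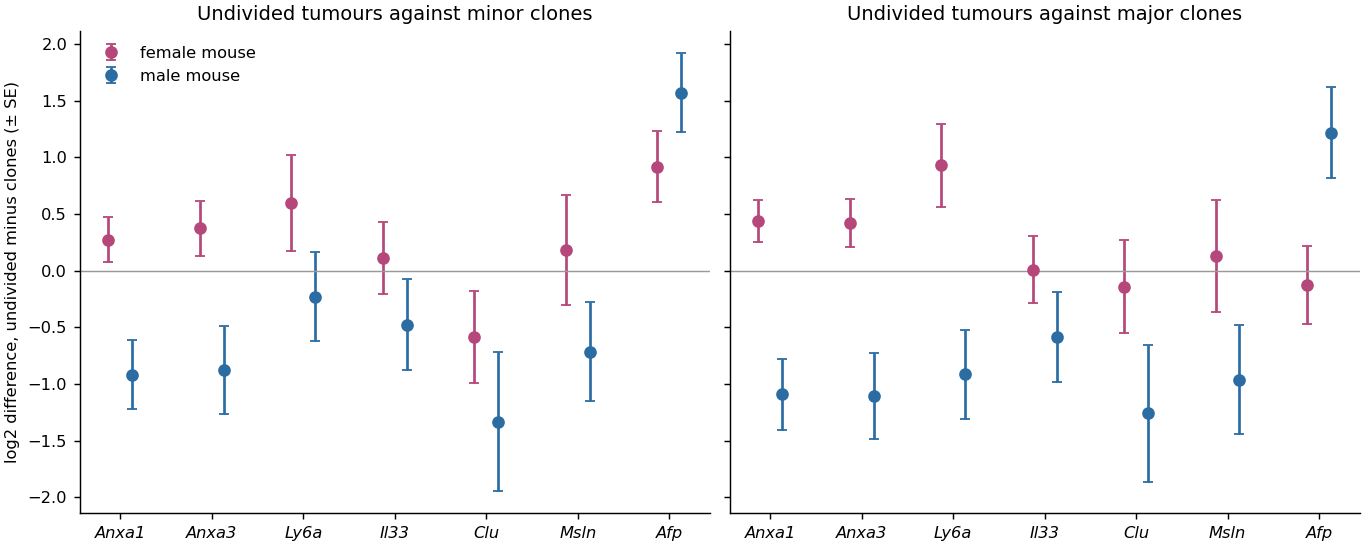
Log2 difference between undivided tumours and minor clones (left) or major clones (right) for the 7 genes, fitted in each mouse alone, with standard errors from limma. In the male mouse Afp lies above 0 (1.57 against minor clones) and the other 6 genes below it, and in the female mouse most genes lie near or above 0.

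The third question was the segment. No member was called between SI20 and SI10, neither in the 23 undivided tumours, where 28 genes (0.170% of all tested) were, nor in the 17 divided tumours whose clones shared one of these segments, where 46 (0.280%) were. At an unadjusted p under 0.05 no member was counted in undivided tumours (1258 genes of the table) and 1, Ly6a, in divided tumours (2358 genes). Clu had the largest difference of the members in undivided tumours, at 4841 to 153160 (median 29180) in 12 SI10 and 20431 to 164926 (median 75079) in 11 SI20 tumours, a difference of 1.13 (SE 0.57, limma, adjusted p = 0.663). In divided tumours it differed by 0.76 (SE 0.42, limma, adjusted p = 0.403). The differences were larger in the male mouse, at 1.89 (SE 0.71) in undivided and 1.55 (SE 0.57) in divided tumours, against 0.15 (SE 0.74) and -0.34 (SE 0.23) in the female mouse, and none of these was called. The 5 lowest values of Clu in undivided tumours were all from SI10, and the ranges of the segments overlapped.

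Ly6a was lower in SI20 than in SI10 among divided tumours by 1.06 on the log2 scale as a mean of both clones (-1.06, SE 0.38, limma, adjusted p = 0.260). Its major clones were at 605 to 5374 (median 1953) in SI10 and 351 to 2475 (median 812) in SI20, and its minor clones at 483 to 4417 (median 1574) and 240 to 1480 (median 616). These ranges include tumour 22 of the female mouse, whose clones were from different segments and which the test left out. Undivided tumours did not share this direction (0.46, SE 0.36, limma, adjusted p = 0.769). Their lowest Ly6a values were in tumours 15 (221) and 17 (284) of SI10 and 18 (324) of SI20, all of the male mouse. A fit without these tumours together was not made. In the male mouse alone the difference in divided tumours was -1.65 (SE 0.41), and in the female mouse -0.22 (SE 0.50). Afp differed by -0.44 (SE 0.38) in undivided and -0.05 (SE 0.24) in divided tumours. In the 4 clones of the 2 SI30 tumours, for which no test was made, Afp was at 18.4 to 33.8 and Msln at 107 to 647. Of the 25 other fetal and regenerative genes, 20 were higher in SI20 in undivided tumours (median 0.35) and 22 in divided tumours (median 0.27), and none was called. Genes of other cells also differed between segments, with no call: in undivided tumours 10 of 12 fibroblast genes (median 0.77), 9 of 10 endothelial (0.33), 7 of 7 neutrophil (0.65) and 0 of 10 T cell genes (-0.54) were higher in SI20, and in divided tumours 9 of 12, 8 of 10, 2 of 7 and 1 of 10. With the stromal and immune lists as a covariate Clu differed by 0.90 (SE 0.53, limma, adjusted p = 0.747) in undivided tumours.

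The fourth question was the relation to Lgr5, for which log2 values were fitted on log2 Lgr5, so that a slope of 1 means an equal change on the log2 scale. Within tumours, from the differences between the clones of the 20 divided tumours, no member was called, where 50 genes (0.304%) were. The slope of Afp was -0.70 (SE 0.29, limma, adjusted p = 0.210), with r = -0.48 (permutation p = 0.0304) and a Spearman rho of -0.36 (permutation p = 0.118). Without the 2 tumours farthest from the median Lgr5 difference, r was -0.31, so the relation leans on those tumours. It was -0.68 in the female and -0.35 in the male mouse. The slopes of the other members were between -0.34 (Msln, SE 0.27) and 0.24 (Il33, SE 0.18). Il33 had r = 0.27 (permutation p = 0.246) and a rho of 0.40 (permutation p = 0.0862), larger in size than that of Afp and opposite in sign. Genes of other cells moved with Lgr5 in the same differences. All 11 enterocyte genes had slopes below 0 (median -0.65, none called), and all 12 fibroblast genes (median 0.76) and all 8 smooth muscle genes (median 0.73) had slopes above 0, of which Lum, a matrix proteoglycan of fibroblasts, rose (1.49, SE 0.26, limma, adjusted p = 0.0327). With the stromal and immune lists as a covariate the slope of Afp was -0.65 (SE 0.30, limma, adjusted p = 0.277), and the part of enterocytes was not tested. Of 14 WNT-driven crypt stem cell genes 13 had slopes above 0, and Axin2, a WNT target, rose (0.39, SE 0.08, limma, adjusted p = 0.0458). In all, 14 relations with Lgr5 were computed, and the adjusted p-values are over all genes.

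In undivided tumours, with mouse as a covariate, 352 genes (2.13%) were called and again no member. Clu had the steepest slope, 0.57 (SE 0.23, limma, adjusted p = 0.169), with r = 0.46 (permutation p = 0.0355), rho = 0.43 (permutation p = 0.0557) and r = 0.47 without the 2 tumours farthest from the median of Lgr5. Within mice r was 0.30 in the female and 0.54 in the male mouse. Afp had a slope of -0.29 (SE 0.15, limma, adjusted p = 0.299; r = -0.38, permutation p = 0.0936; rho = -0.32, permutation p = 0.159), and its r was -0.20 without those 2 tumours. The slopes of Anxa1 (-0.02, SE 0.14), Anxa3 (0.05, SE 0.16), Ly6a (-0.06, SE 0.15), Il33 (-0.03, SE 0.17) and Msln (0.10, SE 0.23) were smaller than their standard errors. Those of Anxa1 and Ly6a turned sign when each library was scaled to the same sum.

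The Lgr5 axis itself was visible in the same tumours. Of 14 WNT-driven crypt stem cell genes tested beside Lgr5, 6 rose with it in undivided tumours, among them Nkd1, an inhibitor of WNT signalling (slope 0.72, SE 0.10, limma, adjusted p = 0.000657), Tnfrsf19, a receptor of crypt stem cells (0.57, SE 0.08, limma, adjusted p = 0.000691), Slc12a2, an ion cotransporter of the crypt (0.51, SE 0.07, limma, adjusted p = 0.000691), and Notum, a secreted WNT antagonist (0.45, SE 0.09, limma, adjusted p = 0.0102). None of the 25 other fetal and regenerative genes was called, with a median slope of 0.09 and 18 of 25 above 0. Alb rose with Lgr5 (1.99, SE 0.44, limma, adjusted p = 0.0187), as did Ahsg, another plasma protein of the liver (1.19, SE 0.24, limma, adjusted p = 0.0112). Of 12 fibroblast genes 11 had a slope above 0, and Fn1 (0.73, SE 0.17, limma, adjusted p = 0.0213) and Pdgfra (0.57, SE 0.13, limma, adjusted p = 0.0218) rose. Of 21 YAP targets 17 had a slope above 0 (median 0.14, none of these called), and Nuak2 fell as Lgr5 rose (-0.26, SE 0.06, limma, adjusted p = 0.0322). With the stromal and immune lists as a covariate the slope of Clu was 0.41 (SE 0.24, limma, adjusted p = 0.385).

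The 7 genes did not vary as 1 group. Correlations were taken over the 23 undivided tumours, centred on each mouse, and over the 20 differences between clones, and they are descriptions of tumours that share these libraries. Among the 21 pairs of members the median r was 0.10 in undivided tumours (-0.68 to 0.90) and 0.14 within tumours (-0.32 to 0.70). The annexins formed the closest pair, with r = 0.90 in undivided tumours and 0.70 within tumours. Anxa1 and Ly6a followed with 0.59 and 0.66, and Anxa1 and Il33 with 0.57 and 0.42. Undivided tumours 15, 17 and 18 of the male mouse were the lowest of its undivided tumours in Anxa1, Ly6a and Il33. How far r in undivided tumours rests on them was not tested. Clu ran with Anxa3 in undivided tumours (0.69) but much less within tumours (0.22).

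Afp stood apart from the rest. In undivided tumours it ran against Clu (-0.68) and Anxa3 (-0.48), while within tumours these were -0.14 and 0.00. In undivided tumour 2 of the male mouse Afp was at 771, the highest value of all libraries, and Clu at 4841, the lowest. In undivided tumour 5 they were at 579 and 6127, and in undivided tumour 7, which had the lowest Afp of the undivided tumours of this mouse (78.5), Clu was at 111399. Msln had no member with r above 0.42 in either set. Of 8 mesothelial genes, 2 were high enough to be tested. The mean of this list gave r = 0.26 with Msln in undivided tumours and 0.08 within tumours. A part of mesothelium in the value of Msln was not tested.

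**Figure D4:**
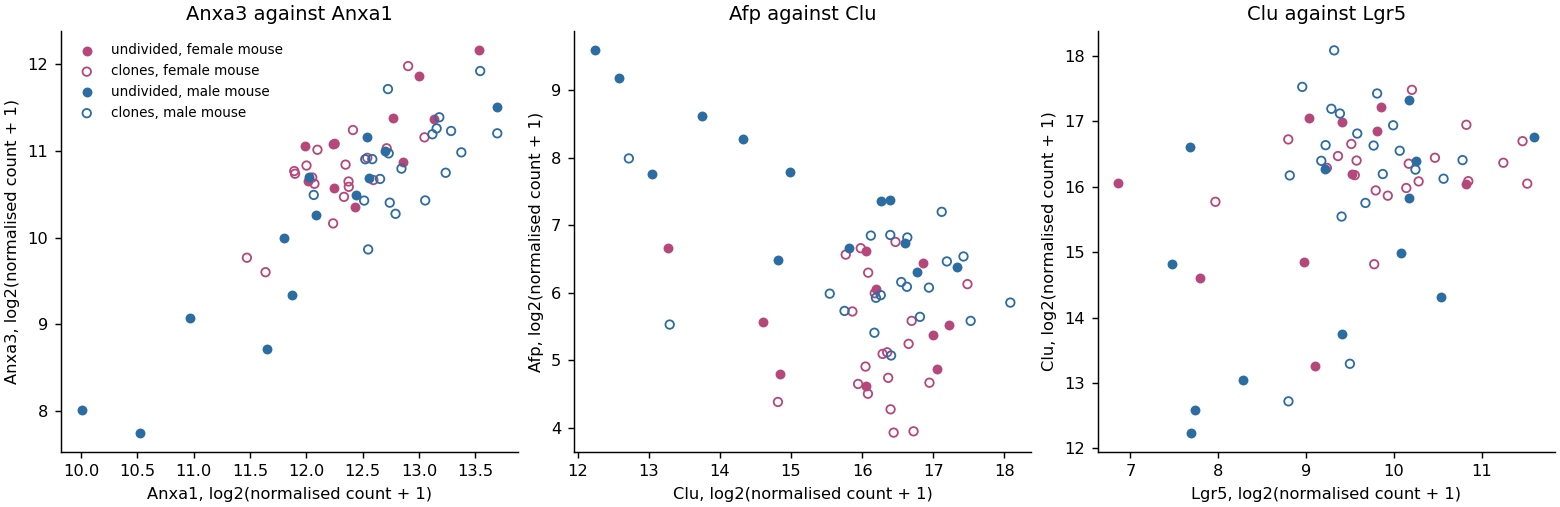
Log2(normalised count + 1) of Anxa3 against Anxa1, of Afp against Clu and of Clu against Lgr5, 1 point for each of the 63 libraries (filled, undivided tumours; open, clones; colour, mouse). Anxa1 and Anxa3 rise together (r = 0.90 in undivided tumours), and the undivided tumours of the male mouse with the lowest Clu have the highest Afp.

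Set beside the wider list of 25 fetal and regenerative genes, whose mean log2 value was taken in each library, the members split in the same way. The mean gave r = 0.85 in undivided tumours and 0.92 within tumours with Anxa1, 0.93 and 0.69 with Anxa3, 0.72 and 0.58 with Il33, and 0.50 and 0.44 with Ly6a. With Clu it gave 0.71 and 0.11, with Msln -0.07 and 0.36, and with Afp -0.49 and 0.03. Lists of other cells ran with some members too. Clu gave 0.78 with endothelium and 0.70 with fibroblast genes in undivided tumours, but -0.02 and -0.31 within tumours. Il33 gave 0.77 with neutrophil genes in undivided tumours and 0.20 within tumours. Afp gave 0.46 and 0.63 with enterocyte genes and 0.62 and 0.21 with T cell genes. The mean of YAP targets, genes switched on in regenerating epithelium, gave 0.76 and 0.27 with Clu and 0.27 and 0.59 with Il33. The part of these cells in the members' values was not tested beyond the covariate above.

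**Figure D5:**
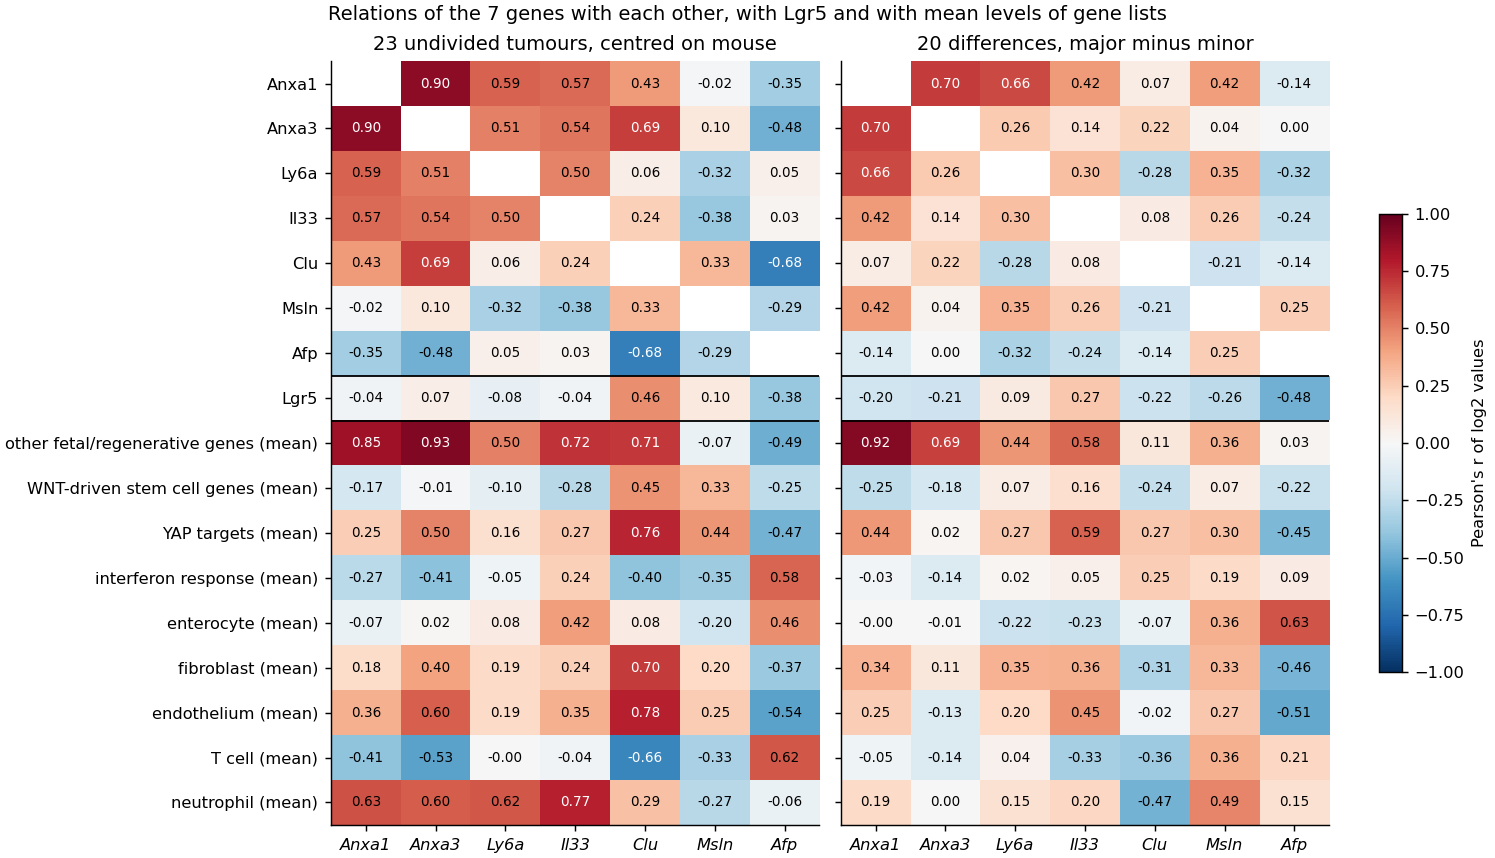
Pearson's r of log2 values of the 7 genes (columns) with each other, with Lgr5 and with the mean of gene lists (rows), over 23 undivided tumours centred on each mouse (left) and 20 differences between major and minor clones (right). Red is positive and blue negative. Anxa1 and Anxa3 run with each other and with the other fetal and regenerative genes, and Afp has r at or below 0.25 with each of them.

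The genes most like each member were found over all genes with a symbol and a mean of at least 10, by the smaller of the 2 correlations. Nearest to Anxa1 was another annexin, Anxa8 (0.90 in undivided tumours, 0.88 within tumours), before Prss22, a serine protease (0.83 and 0.81), and Krt19, a keratin of simple epithelia (0.84 and 0.80). Nearest to Anxa3 were Sh3kbp1, an adaptor protein (0.83 and 0.86), Anxa8 (0.85 and 0.82) and Anxa2 (0.82 and 0.88). Anxa8, Anxa2 and Krt19 are all on the list of 25 fetal and regenerative genes, which was compiled apart from this search but with earlier results of these data known. Ly6a was most like Krt90 (0.73 and 0.81), Ceacam1, a cell adhesion molecule (0.68 and 0.71), and Apobec2 (0.68 and 0.65).

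Clu was most like Ctse, the protease cathepsin E (0.90 and 0.79), Hhex, a homeobox factor (0.79 and 0.81), and Chst11, a chondroitin sulfotransferase (0.87 and 0.78). Il33 was most like Shb, an adaptor protein (0.83 and 0.77), Tinagl1, a matrix protein (0.84 and 0.74), and Clca4a (0.75 and 0.69). The genes nearest to Msln were less near than those of the other members: Gja1, which is on the fetal and regenerative list (0.61 and 0.58), Pdgfd, a growth factor (0.57 and 0.66), and Ebf4 (0.54 and 0.56). The genes most like Afp were Atp5o, a subunit of mitochondrial ATP synthase (0.79 and 0.80), Sdhd, a subunit of succinate dehydrogenase (0.79 and 0.80), and Eci3, an enzyme of fatty acid oxidation (0.75 and 0.76).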

How the data were processed

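Bulk RNA-seq of 63 libraries was analysed from 1 table. As deposited by the authors, its values are a signal per gene called normalised counts: reads trimmed with Trimmomatic 0.39, quantified with Salmon 1.9.0 against Gencode (GRCm39) and scaled between libraries. The scaling is not stated beyond the use of DESeq2. No count test was used, since these values did not give back whole reads. The class of a clone (major or minor) came from the study's source data, matched by sample title, and the label's tumour number pairs the clones, which come from the same tumour.

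Members and gene lists were chosen with earlier results of these data known, and the lists rest on general knowledge. Values were tested as log2(value + 1), where a gene's mean in the libraries under comparison reached 10, with limma 3.58.1 (eBayes with trend, R 4.3.3), with the tumour as a block between clones, mouse as a covariate otherwise, and Benjamini-Hochberg adjustment over all genes (threshold 0.05). A difference on this scale understates that of low genes. Within-tumour fits used the differences between clones. Correlations with Lgr5 were tested by 100000 permutations, within mice for undivided tumours, two-sided. Named genes were the 7 members, Lgr5, the 3 genes of highest likeness to each member, up to 3 called genes of each other list in a comparison, and Notum. A further gene that the rule names is not reported here. Positions, promoters and 31-base words came from GRCm39 with Gencode M39, a later release than the authors', which held 24575 of the 24766 identifiers. The fits were tested on simulated data. Alternatives are given in the closing section. The assignment of 20 monoclonal tumours among the 23 undivided ones was not used here. Whether undivided tumours 15, 17 and 18 of the male mouse belong to those 20 was not determined.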

Additional observations from a re-analysis of the deposited data

Results flagged for a closer look

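In groups of 10 tumours of 1 mouse, single values that lay far from the others were looked for among the 7 genes and Lgr5 (Dixon's criterion at 95%), in 56 groups of levels or of differences between clones. In all 9 values passed it, and chance flags about 1 group in 20. Clu had 3 of them: major clone 29 of the female mouse (28819 normalised counts), and both clones of tumour 19 of the male mouse (6742 in the major and 10036 in the minor clone), all of them low. Tumour 19 of the male mouse was also apart for Msln in its minor clone (217, low) and for the difference of Afp between its clones (2.46 on the log2 scale, major minus minor, high). Tumour 26 of the female mouse was apart in the differences of Anxa1 (0.78) and Anxa3 (1.64), the pair of genes that ran together most closely. The other differences were those of Ly6a in tumour 28 (2.97) and of Lgr5 in tumour 29 (1.82), both of the male mouse. The 13 undivided tumours of the male mouse formed no group of 10 and were not searched.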

How the results depend on the processing

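With any single tumour or library left out, the number of members called did not change in any of the 7 comparisons so examined. Leaving out 1 at a time cannot show a dependence on several tumours that are low together. Undivided tumours 15, 17 and 18 of the male mouse, low in Anxa1, Ly6a and Il33, were not left out as a set. Afp in undivided tumours against minor clones stayed called, at 1.17 to 1.34 (adjusted p = 0.00250 to 0.0191). Over 12 other settings of that comparison (pseudocount, filter, scaling, variance model, segment, covariate and single mice) it was called in 11, at 1.17 to 1.57 (adjusted p = 0.00609 to 0.0192). In the female mouse alone 0 members were called, where Afp was at 0.92 (adjusted p = 0.470), a fit with fewer tumours. Between clones, Afp was at 0.36 to 1.05 over 12 settings (adjusted p = 0.0728 to 0.659) and at 0.60 to 0.77 with 1 tumour left out (adjusted p = 0.0638 to 0.140). Without the replicate block, that is without the pairing of clones within tumours, 0 members were called and Afp was at 0.70 (adjusted p = 0.182). Of 658 values of single members over all such settings, 620 kept direction and side of the threshold and 37 that were not called changed sign.

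The number of all genes called was far less stable. With 1 tumour or library left out it went from 25 to 859 between clones (188 with all, and 17 of 20 tumours moved it by over 1.5 times), from 274 (without the minor clone of male tumour 26) to 959 between undivided tumours and minor clones (610), from 0 to 25 against major clones (2), from 5 to 53 and from 13 to 215 between segments (28 undivided, 46 divided), and from 0 to 96 and from 102 to 742 for Lgr5 slopes within (50) and between tumours (352). Over the other settings it went from 0 to 366, 757, 2, 46, 1062, 876 and 1257 in the same order, with 0 in the female mouse alone in each. The shares of genes called that stand beside the members' counts move with these numbers, and the cause was not tested. Precision rests on 2 animals, and values of Afp near its minimum on about 11.0 reads.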
